A study of Mus musculus with 8 samples.

Results

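The synaptonemal complex and chromosome axis genes were a set of 10 mouse genes, *Sycp1*, *Syce1*, *Syce2*, *Tex12*, *Sycp2*, *Sycp3*, *Hormad1*, *Hormad2*, *Tex11* and *Fkbp6*, taken by name for their part in chromosome synapsis. A probe belonged to a gene when its RefSeq accession mapped to that symbol, and all 10 genes had a probe, out of 19751 genes named on the array. *Hormad1* and *Tex11* had 2 probes each and the other 8 genes had 1. The study asked how far PCGF6-PRC1, a Polycomb complex that contains L3MBTL2, contributes to MAX keeping germ cell genes silent in embryonic stem cells (ESCs). Expression was measured on 8 one-colour arrays, 1 for each of 4 biological replicates of 2 groups. Both groups were male mouse VV3 ESCs, which carry a *Vasa*::Venus transgene, a fluorescent reporter of the germ cell gene *Ddx4* (*Vasa*), and were grown with STO feeder fibroblasts. The *L3mbtl2*-KD group received siRNA against *L3mbtl2* and the control group received the AllStars siRNA, which targets no gene. The *L3mbtl2*-KD cells on the arrays were sorted for *Vasa* reporter signal, and for the control cells no such selection is described, so effects of the siRNA and of the selection cannot be told apart.

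In meiotic prophase, the sister chromatids of each chromosome are organised on a protein axis built from cohesin, SYCP2, SYCP3 and the HORMA domain proteins HORMAD1 and HORMAD2. When homologous chromosomes synapse, SYCP1 transverse filaments bridge their axes and meet in a central element that holds SYCE1, SYCE2, SYCE3, SIX6OS1 and TEX12. These proteins serve in germ cells, and many of their genes are kept low in ESCs by a Polycomb complex that carries MGA with MAX and E2F6 as DNA-binding subunits.

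Expression values below are log2 intensities after the scanner's background subtraction, minus the log2 of the 75th percentile of the same array, and the levels of different members were not compared. Sums over marker genes weigh each gene by its probe's intensity, so the brightest is named. Only probes well above background on all 4 arrays of either group entered limma, and a call needed 1 probe of the gene with a change above 2-fold and an adjusted p below 0.05 (Benjamini-Hochberg over 23518 probes). The siRNA target *L3mbtl2* was at 0.27, -0.18, -0.21 and -0.31 in control replicates 1 to 4 and at -1.45, -1.26, -1.58 and -1.73 in the *L3mbtl2*-KD replicates. All 4 *L3mbtl2*-KD samples were below all control samples, and the log2 fold change of -1.40 (limma adjusted p = 0.00094) leaves 0.379 of the control intensity. *Ddx4*, the gene behind the sorted reporter, was at 3.62 to 3.87 in *L3mbtl2*-KD ESCs and at 0.85 to 0.99 in control ESCs.

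Of the 10 synapsis genes, 9 could be tested, and *Sycp2* was too dim. *Sycp1*, *Hormad2* and *Tex11* were called higher in *L3mbtl2*-KD ESCs (3 genes, against 2.49% of the 13652 genes tested on the array), and *Syce1*, *Tex12*, *Hormad1* and *Fkbp6* were called lower (4 genes, against 3.21%). *Syce2* and *Sycp3* were tested and not called. At an adjusted p under 0.05 with no limit on size, 4 members were higher and 4 lower in limma, where the shares over all genes were 10.3% and 11.7%. The median log2 fold change of the 9 tested members was -0.11, against -0.01 for all genes tested, but the median absolute change was 1.23 against 0.21. The members thus moved apart rather than together, and the members that rose and fell are set beside each other by role below. Over the whole array 340 genes were called higher and 438 lower, and after normexp 194 and 159. Normexp also left 2 members called higher and 2 lower, with *Hormad2*, *Hormad1* and *Tex12* under 2-fold.

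**Figure D1:**
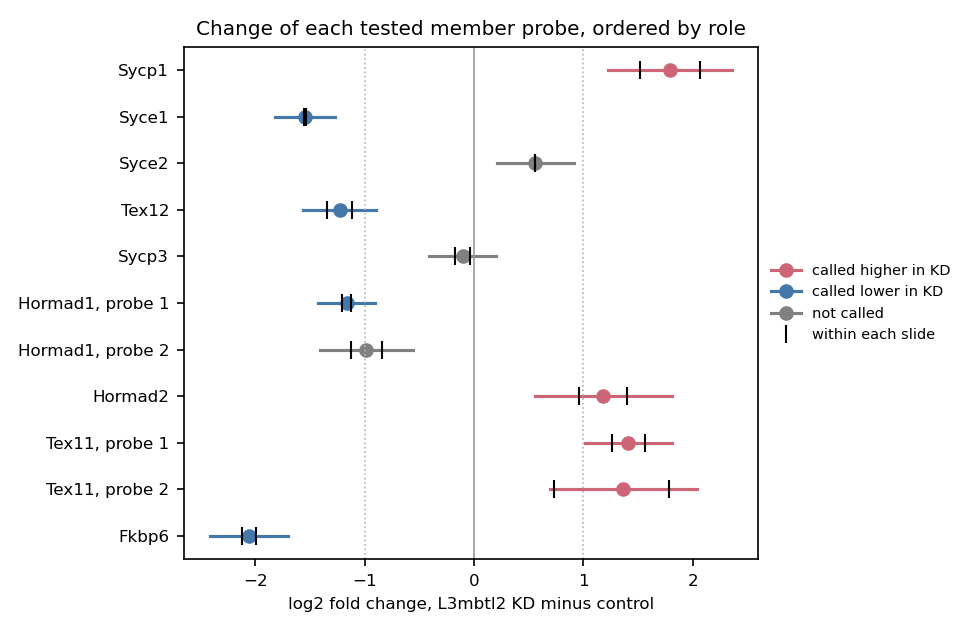
Log2 fold change (*L3mbtl2*-KD minus control) of the 11 tested member probes, ordered by role, with 95% confidence intervals from limma as lines and the values within each slide as ticks. Red probes were called higher, blue probes lower, and dotted lines mark a 2-fold change.

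*Sycp1* (NM_011516) encodes the transverse filament protein. Its promoter is shown first because the sequence letters were searched in every member with a RefSeq promoter, which was 9 of the 10 genes, *Tex11* being the exception. Each window covers 250 bases before to 50 bases after a start site in assembly GRCm38.p6, written 5′ to 3′ along the gene's strand, and capitals mark CACGTG (the E-box letters that MAX dimers bind), GCGGGAA (E2F-type) or AGGTGTGA (T-box-type), searched on both strands. The window of *Sycp1*, at chr3:102936051-102936350 on the minus strand, holds 1 E-box at -94 from the start site and 21 CG dinucleotides.
Sycp1: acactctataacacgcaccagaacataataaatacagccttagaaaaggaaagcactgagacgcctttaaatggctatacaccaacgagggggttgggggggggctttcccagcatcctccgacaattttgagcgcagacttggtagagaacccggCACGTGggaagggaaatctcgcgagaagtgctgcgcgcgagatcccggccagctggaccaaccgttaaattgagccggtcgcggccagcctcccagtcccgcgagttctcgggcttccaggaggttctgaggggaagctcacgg
Of all 32851 promoter windows in the table, 7.15% hold CACGTG, 4.60% hold GCGGGAA and 1.28% hold AGGTGTGA, and the median number of CG dinucleotides is 7. By gene, 6 of the 9 members had CACGTG in a window, against 8.09% of all 27025 genes, and 4 had GCGGGAA, against 5.29%. Only *Sycp3* had AGGTGTGA, against 1.48% of genes. The members' windows hold 10 to 33 CG dinucleotides, and CACGTG and GCGGGAA themselves contain CG, so the shares over all genes are not matched for CG content. *Syce2*, *Hormad1* and *Fkbp6* had 2 windows each, and *Syce2* held its motifs in 1 of them. The E-box letters were found in members that rose (*Sycp1*), fell (*Tex12*, *Hormad1*, *Fkbp6*) and were not called (*Syce2*, *Sycp3*), and were not in the windows of *Hormad2*, *Syce1* and *Sycp2*. A match describes the letters only, and no binding was measured on these arrays.

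The log2 intensity of *Sycp1* was -1.71, -2.53, -2.54 and -2.78 in control replicates 1 to 4 and -0.21, -1.002, -0.67 and -0.52 in *L3mbtl2*-KD replicates 1 to 4. Control replicate 1 was the highest control, and the groups did not overlap. *Sycp1* rose 3.46-fold (log2 change 1.79 with a standard error of 0.25; adjusted p = 0.0026 in limma). The slides gave 1.51 (first) and 2.07 (second). Normexp gave 1.48.

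**Figure D2:**
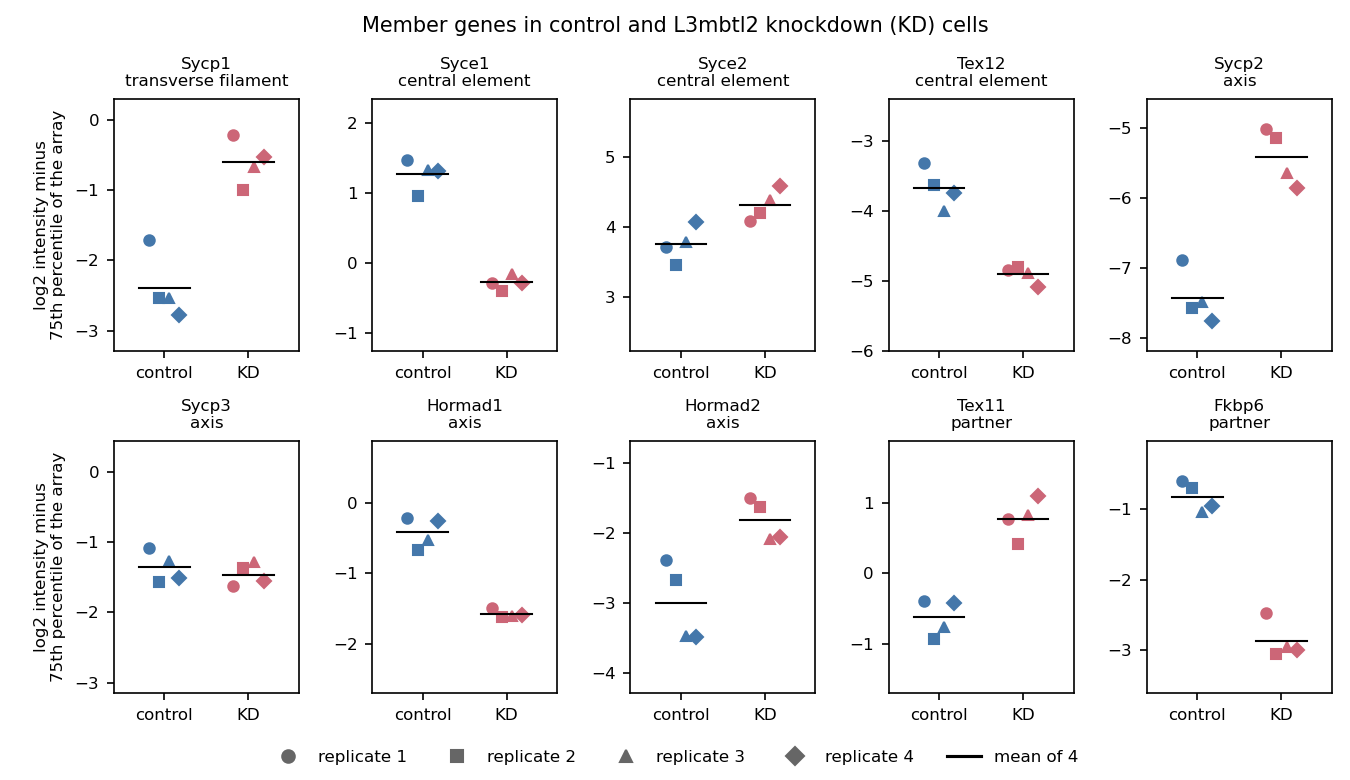
Log2 intensity minus the 75th percentile of the array for the 10 members, 1 probe each (for *Hormad1* and *Tex11* the brighter one), in 4 control (blue) and 4 *L3mbtl2*-KD (red) samples, with symbols for replicates and lines for means. Every panel spans 3.6 log2 units but has its own level, and no control sample had *Sycp2* well above background. The groups overlap only for *Sycp3*. How many genes of the whole array overlap was not counted, so whether the members differ from other genes in this is not known.

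Among the central element members, *Syce1* and *Tex12* were called lower and *Syce2* was not called. *Syce1* (NM_001143765), whose protein lies next to the ends of the SYCP1 filaments, was at 1.48, 0.96, 1.33 and 1.32 in control ESCs and at -0.28, -0.39, -0.15 and -0.27 in *L3mbtl2*-KD ESCs. The 4 *L3mbtl2*-KD samples lay within a narrow range far below the lowest control, replicate 2. *Syce1* fell 2.91-fold (log2 change -1.54 with a standard error of 0.12; adjusted p = 0.00024 in limma), with -1.55 in the first slide and -1.54 in the second. Normexp gave -1.45, close to the value without it. None of the 3 motifs was found in its window, which has 14 CG dinucleotides.

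*Tex12* (NM_025687) encodes a partner of SYCE2 in the central element, and its probe was spotted 10 times on each array. Its promoter is shown as that of a member that fell with both E-box and E2F-type letters, at chr9:50561219-50561518 on the minus strand, with CACGTG at -93 and GCGGGAA at -145 and with 26 CG dinucleotides.
Tex12: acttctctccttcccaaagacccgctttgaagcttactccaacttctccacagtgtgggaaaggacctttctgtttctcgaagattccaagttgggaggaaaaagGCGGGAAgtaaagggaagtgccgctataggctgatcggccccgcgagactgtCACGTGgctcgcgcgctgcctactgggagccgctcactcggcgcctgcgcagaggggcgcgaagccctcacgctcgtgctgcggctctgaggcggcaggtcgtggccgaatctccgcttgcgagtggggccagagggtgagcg
The log2 intensity of *Tex12* was -3.31, -3.63, -3.99 and -3.75 in control ESCs and -4.84, -4.79, -4.88 and -5.09 in *L3mbtl2*-KD ESCs. The groups did not overlap, and the spread was smaller in *L3mbtl2*-KD (SD 0.13) than in control ESCs (SD 0.28). *Tex12* fell 2.34-fold (log2 change -1.23 with a standard error of 0.15; adjusted p = 0.0013 in limma), by 1.35 on slide 1 and 1.11 on slide 2. Normexp gave a change of -0.43 (limma adjusted p = 0.027), under 2-fold.

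*Syce2* (NM_027954), the partner of *Tex12*, was at 3.71, 3.46, 3.78 and 4.06 in control ESCs and at 4.09, 4.202, 4.38 and 4.59 in *L3mbtl2*-KD ESCs. The groups came close at control replicate 4 and *L3mbtl2*-KD replicate 1 but did not overlap. Its log2 fold change was 0.56 (standard error 0.15, limma adjusted p = 0.038), and the 95% interval of 0.21 to 0.91 lay below the 2-fold limit. The adjusted p passed 0.05 when any of control replicates 1, 2 and 3 or *L3mbtl2*-KD replicates 2, 3 and 4 was left out (log2 fold change 0.46 to 0.60, adjusted p 0.054 to 0.091), while the replicate block gave 0.0049. Within each array, the log2 signal of *Syce2* relative to *Tex12* was 1.79 higher in *L3mbtl2*-KD than in control ESCs, with single *L3mbtl2*-KD samples at 1.51 to 2.25 from the control mean and control samples at -0.40 to 0.39. With normexp this shift was 0.93, and the cause of the difference was not tested. Relative to *Syce1* the shift of *Syce2* was 2.10, and 1.96 with normexp. These are statements on array signal and not on protein.

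Among the tested chromosome axis genes, opposite calls were made for *Hormad1* and *Hormad2*, paralogues whose proteins bind unsynapsed axes. The promoters of this pair are shown because the genes moved in opposite directions. The *Hormad1* window at chr3:95559427-95559726 on the plus strand holds CACGTG at -57 and -20, GCGGGAA at -95 and 24 CG dinucleotides. The *Hormad2* window at chr11:4441033-4441332 on the minus strand holds none of the 3 motifs and 16 CG dinucleotides.
Hormad1: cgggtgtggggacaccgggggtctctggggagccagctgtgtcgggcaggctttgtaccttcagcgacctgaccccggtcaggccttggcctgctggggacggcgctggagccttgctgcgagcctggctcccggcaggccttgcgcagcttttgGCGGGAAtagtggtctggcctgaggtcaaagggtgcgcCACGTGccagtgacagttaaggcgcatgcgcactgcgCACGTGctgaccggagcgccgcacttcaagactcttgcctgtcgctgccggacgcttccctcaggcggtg
Hormad2: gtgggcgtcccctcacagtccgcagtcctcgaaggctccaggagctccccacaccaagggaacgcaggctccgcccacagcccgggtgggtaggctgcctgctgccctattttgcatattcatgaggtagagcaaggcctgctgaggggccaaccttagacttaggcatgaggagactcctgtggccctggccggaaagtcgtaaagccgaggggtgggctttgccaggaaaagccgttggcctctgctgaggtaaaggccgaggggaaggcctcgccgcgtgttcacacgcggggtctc
The brighter probe of *Hormad1* (NM_026489) read -0.21, -0.67, -0.53 and -0.26 in control ESCs and -1.50, -1.62, -1.61 and -1.59 in *L3mbtl2*-KD ESCs. The 4 *L3mbtl2*-KD samples were nearly identical (SD 0.06) and lay below every control sample. *Hormad1* fell 2.24-fold on this probe (log2 change -1.17 with a standard error of 0.12; adjusted p = 0.00064 in limma), with -1.12 and -1.21 within the slides. The second probe read -1.68, -2.17, -2.07 and -1.74 in control ESCs and -3.12, -2.40, -3.14 and -2.93 in *L3mbtl2*-KD ESCs. *L3mbtl2*-KD replicate 2 was the highest of its group on this probe, yet the groups did not overlap. Its log2 fold change of -0.98 (standard error 0.19, limma adjusted p = 0.0096) was just under 2-fold, and normexp gave -0.96 and -0.74 for the first and second probe.

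*Hormad2* (NM_029458) was at -2.38, -2.66, -3.46 and -3.48 in control ESCs and at -1.49, -1.62, -2.09 and -2.05 in *L3mbtl2*-KD ESCs. In both groups replicates 1 and 2, which shared a slide, were higher than replicates 3 and 4 on the other slide, and all *L3mbtl2*-KD samples were above all control samples. *Hormad2* rose 2.27-fold (log2 change 1.18 with a standard error of 0.27; adjusted p = 0.021 in limma), with 0.96 on slide 1 and 1.40 on slide 2. With the slide as a block the adjusted p was 0.00073. The call was lost without *L3mbtl2*-KD replicate 1 (log2 fold change 1.07, adjusted p = 0.051), without control replicate 3 (1.02, adjusted p = 0.057) and without control replicate 4 (1.02, adjusted p = 0.0504). Normexp gave 0.86 (adjusted p = 0.013), under 2-fold. The log2 signal of *Hormad2* relative to the brighter *Hormad1* probe was 2.35 higher in *L3mbtl2*-KD than in control ESCs, with *L3mbtl2*-KD samples at 2.11 to 2.58 from the control mean and control samples at -0.64 to 0.59, and with normexp it was 1.82 higher.

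*Sycp3* (NM_011517) and *Sycp2* (NM_177191) encode the core of the lateral element. The *Sycp3* promoter, at chr10:88459337-88459636 on the plus strand, is shown because it alone holds all 3 motifs, with CACGTG at -64 and -43, GCGGGAA at -147 and AGGTGTGA at -247, in a gene whose signal was about equal in both groups.
Sycp3: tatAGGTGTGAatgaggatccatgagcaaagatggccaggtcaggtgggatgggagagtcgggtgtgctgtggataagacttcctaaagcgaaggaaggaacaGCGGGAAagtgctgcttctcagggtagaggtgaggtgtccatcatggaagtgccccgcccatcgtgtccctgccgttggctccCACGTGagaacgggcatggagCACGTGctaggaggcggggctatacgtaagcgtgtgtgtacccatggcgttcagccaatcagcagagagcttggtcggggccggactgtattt
*Sycp3* was at -1.08, -1.57, -1.26 and -1.51 in control ESCs and at -1.63, -1.37, -1.29 and -1.56 in *L3mbtl2*-KD ESCs. The groups overlapped, with the highest and the lowest of the 8 values both in replicate 1. The 95% interval of its log2 fold change ran from -0.41 to 0.20 (limma adjusted p = 0.629) and did not reach a 2-fold change in either direction. *Sycp2* read -6.88, -7.56, -7.48 and -7.76 in control ESCs and -5.02, -5.14, -5.64 and -5.86 in *L3mbtl2*-KD ESCs. It was well above background in 2 of the 4 *L3mbtl2*-KD samples and in 0 of the 4 control samples. *L3mbtl2*-KD replicates 3 and 4 were below the dimmest signal that still counted as well above background on their arrays (-5.639 and -5.247). The mean of the *L3mbtl2*-KD samples is therefore no lower limit, and no bound on the fold change of *Sycp2* is given. Normexp gave a log2 difference of 0.48.

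*Tex11* (NM_031384) encodes a meiosis-specific protein needed for synapsis and crossovers, and *Fkbp6* (NM_033571) an FK506-binding protein found on synapsed chromosome cores that also acts in the piRNA pathway. The brighter *Tex11* probe read -0.39, -0.93, -0.77 and -0.42 in control ESCs and 0.77, 0.42, 0.83 and 1.11 in *L3mbtl2*-KD ESCs. All *L3mbtl2*-KD samples were above all control samples. *Tex11* rose 2.66-fold on this probe (log2 change 1.41 with a standard error of 0.18; adjusted p = 0.0016 in limma), with 1.26 and 1.56 within the slides. On the second probe control replicate 2 had an outlier flag and was left out, the other control samples read -4.08, -5.05 and -4.38, and the *L3mbtl2*-KD samples read -2.94, -3.75, -3.00 and -2.86. These groups of 3 and 4 did not overlap either, with *L3mbtl2*-KD replicate 2 the lowest of its group. The log2 fold change of the second probe was 1.36 (standard error 0.29, limma adjusted p = 0.018) and that after normexp was 0.75.

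The promoter of *Fkbp6* is shown for its 2 E-boxes, at -101 and -37 in the window chr5:135349995-135350294 on the minus strand, which has 21 CG dinucleotides. In the window of a second start site, not shown, the E-boxes lie at -232 and -168, with 32 CG dinucleotides.
Fkbp6: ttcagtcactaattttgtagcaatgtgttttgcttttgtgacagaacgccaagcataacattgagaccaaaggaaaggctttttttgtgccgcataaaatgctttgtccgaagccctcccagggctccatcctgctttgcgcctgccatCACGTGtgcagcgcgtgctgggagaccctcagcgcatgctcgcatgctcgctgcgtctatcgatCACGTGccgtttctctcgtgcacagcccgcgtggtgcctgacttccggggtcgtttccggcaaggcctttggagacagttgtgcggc
*Fkbp6* was at -0.59, -0.69, -1.04 and -0.95 in control ESCs and at -2.48, -3.05, -2.96 and -3.00 in *L3mbtl2*-KD ESCs. *L3mbtl2*-KD replicate 1 stood above the other 3, and all 4 were below every control sample. *Fkbp6* fell 4.16-fold (log2 change -2.06 with a standard error of 0.16; adjusted p = 0.00022 in limma), by 2.12 on slide 1, 1.99 on slide 2 and 1.53 after normexp.

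**Figure D3:**
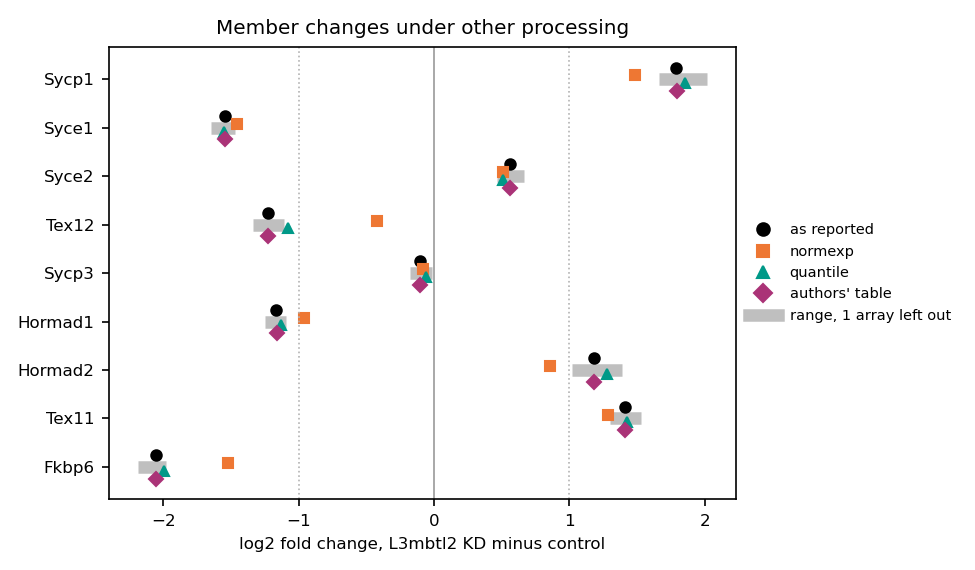
Log2 fold change (*L3mbtl2*-KD minus control) of the 9 tested members, 1 probe each, as reported (black), with normexp background correction (orange), quantile normalization (green) and in the authors' log2 table (purple), with grey bars for the range when 1 array was left out. No member crossed 0, and normexp brought *Tex12* to -0.43, *Hormad1* to -0.96 and *Hormad2* to 0.86, inside the dotted lines that mark 2-fold.

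For each called member, the 2 genes with the most similar values over the 8 arrays were sought among 16239 probes, by the root mean square difference of log2 values after subtraction of the control mean. *Hormad1* had the closest match, *Acsl5* (0.04), followed by *Mgst1* (0.11). *Syce1* was closest to *Trh* (0.09) and *Eid1* (0.10), *Tex12* to *Nupr1* (0.12) and *Fstl1* (0.14), and *Fkbp6* to *Pnldc1* (0.20), a piRNA-trimming enzyme, and *Gpm6b* (0.23). Among members that rose, *Tex11* was closest to *Kremen2* (0.09) and *H2ac8* (0.11) and *Hormad2* to *Kng1* (0.14) and *Egr4* (0.20). *Sycp1* was closest to *Sycp1-ps1* (0.16), its own pseudogene, whose probe may also read *Sycp1* RNA, and to *Trim67* (0.16). Nothing follows from such similarity on function.

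Of 16 other genes of synapsis, telomere attachment and axis regulation, 15 had a probe and 13 were tested, with 3 called higher and 0 called lower in limma. Over all genes tested, here and for the lists below, the shares were 2.49% and 3.21%. By the adjusted one-way test the counts were 3 and 0. At an unadjusted p under 0.05 in limma they were 6 and 2, and the share of all genes at an unadjusted p is not given here. The median log2 fold change was 0.46, against -0.01 over all genes. *Syce3*, a central element gene like *Syce1*, was at -0.51, -0.34, -0.31 and -0.48 in control ESCs and at 1.46, 1.59, 1.72 and 1.66 in *L3mbtl2*-KD ESCs. It rose 4.04-fold without overlap (log2 change 2.02 with a standard error of 0.09; adjusted p = 1.8e-05 in limma), so that central element genes were found among both the called rises and the called falls. *Six6os1*, listed as 4930447C04Rik, was about equal in both groups (log2 fold change -0.04, limma adjusted p = 0.82). *Majin*, which ties telomeres to the nuclear envelope, rose 7.39-fold (log2 change 2.89 with a standard error of 0.24; adjusted p = 0.00031 in limma), and normexp gave 1.81. *Iho1*, whose protein binds HORMAD1 on the axis, rose 2.11-fold (log2 fold change 1.08, limma adjusted p = 0.0033) while *Hormad1* itself fell, and normexp gave 0.89. *Kash5* (0.29), *Skp1* (0.19) and *Sun1* (-0.14) were not called, and *Terb1* and *Syce1l* were too dim to be tested.

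Of the 4 meiotic genes of cohesin, the base of the axis, 3 had a probe, 2 were tested and 1 was called higher. *Rec8* rose 2.60-fold, from 1.99 ± 0.28 to 3.37 ± 0.45 (SD, n = 4 each; log2 fold change 1.38, limma adjusted p = 0.0058). *Smc1b* was 1.61-fold higher, from 0.71 ± 0.08 to 1.39 ± 0.16 (SD, n = 4 each; log2 fold change 0.68, limma adjusted p = 0.0033), too little for a call, and *Stag3* was not well above background on any array. Of the 5 shared subunits, all were tested and 0 were called in limma (at an unadjusted p under 0.05, 0 higher and 1 lower; by the adjusted one-way test, 0), with a median of -0.07 and log2 fold changes of -0.15 for *Rad21*, -0.07 for *Smc1a*, -0.03 for *Smc3* and -0.01 for *Stag1*. *Stag2* was lower by less than 2-fold (-0.43, limma adjusted p = 0.022).

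Of 24 meiotic recombination genes, 20 had a probe and 16 were tested, with 5 called higher and 1 lower in limma (by the adjusted one-way test, 4 and 0; median log2 fold change 0.30). *Zcwpw1*, a histone reader at recombination hotspots, rose 12.5-fold (log2 change 3.65 with a standard error of 0.15; adjusted p = 1.0e-05 in limma). *Ccnb1ip1* (1.67), *Tex15* (1.29) and *M1ap* (1.29) rose too, and *Msh4* was called on one probe (1.07, limma adjusted p = 0.035) but not on its brighter one (0.10, limma adjusted p = 0.87). *Mei4*, which acts with *Iho1* in making DNA breaks, was called lower (log2 fold change -1.29, limma adjusted p = 0.038), but it was above background in 2 of the 4 *L3mbtl2*-KD samples and its adjusted p was above 0.05 in 9 of 17 alternatives. Of these 9, normexp gave a log2 fold change of -0.40 (limma adjusted p = 0.077), and the others gave -1.35 to -1.04. *Mnd1* (-0.04) and *Msh5* (-0.05) were not called, and *Spo11* was not well above background on any array. Of 7 genes of late primordial germ cells and meiotic entry, 6 were tested and 5 called higher (*Ddx4*, *Dazl*, *Rec8*, *Stra8* and *Sohlh2*; median log2 fold change 1.36), of which *Ddx4* is the gene the sorting selected on and *Rec8* is also a cohesin gene. In this list 0 genes were called lower in limma (0 also at an unadjusted p under 0.05 and by the adjusted one-way test), and *Sohlh1* (0.08) was not called. In each of these partner lists with a call, rises outnumbered falls, but meiotic cohesin had only 1 call, *Rec8*, which the late germ cell list holds too. Among the 9 tested members 4 fell and 3 rose, or 2 and 2 with normexp. This contrast was not tested, and the lists were chosen with earlier results of these data known.

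**Figure D4:**
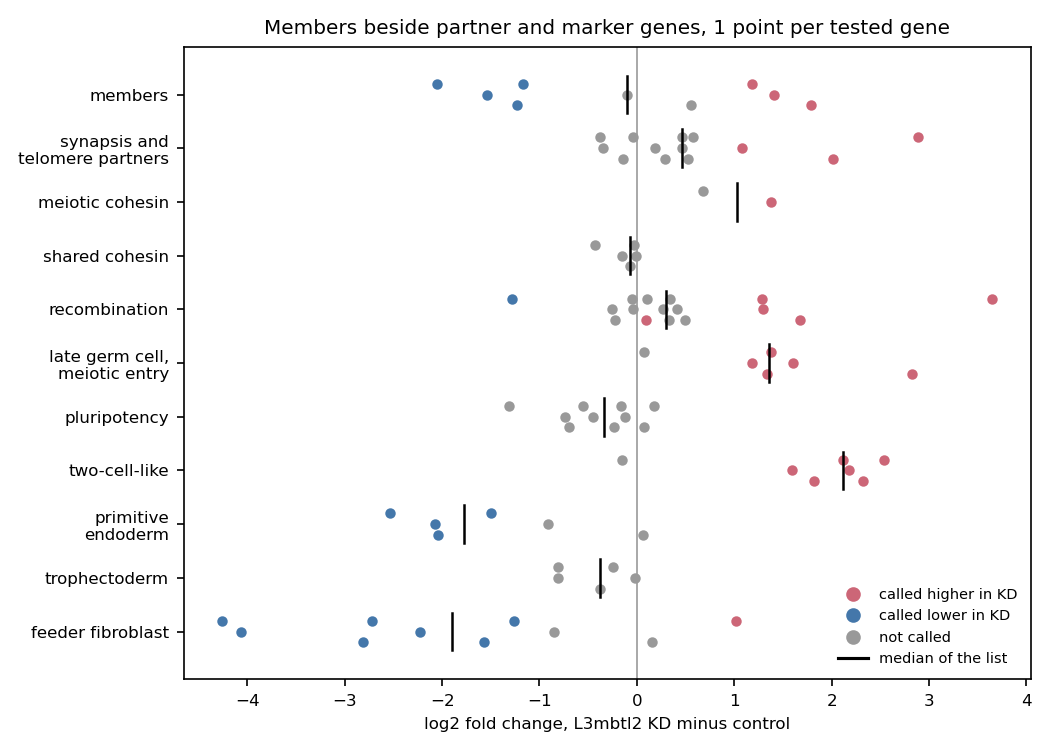
Log2 fold change (*L3mbtl2*-KD minus control) of each tested member, partner and marker gene, on the probe with the highest mean signal, with the list's median as a line. Red and blue mark genes with a probe called higher or lower (*Msh4*, red at 0.10, was called on its other probe); members span -2.06 to 1.79, with calls on both sides.

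Because these are bulk samples, fewer cells of a type and less RNA per cell cannot be told apart, and markers of other cells that moved with the groups are given here beside the members. Of 12 feeder fibroblast genes, 10 were tested, with 7 called lower and 1, *Loxl1*, called higher (median log2 fold change -1.90). With normexp *Loxl1* (0.89) and *Pdgfrb* (-0.84) were under 2-fold, as was *Loxl1* without control replicate 3 (0.98) or *L3mbtl2*-KD replicate 4 (0.93). The dimmer probe of *Loxl1* was not called (log2 fold change 0.88, limma adjusted p = 0.011). The summed intensity of the feeder genes, in units of the array's 75th percentile, was 8.33, 11.2, 9.51 and 12.2 in control replicates 1 to 4 and 3.76, 4.37, 4.04 and 3.77 in *L3mbtl2*-KD replicates 1 to 4. *Fstl1*, 1 of the 2 genes closest to *Tex12*, had the brightest probe. *Dcn* and *Col3a1* were near background in all *L3mbtl2*-KD samples and were at least 12.1-fold and 7.81-fold lower there by the scanner's background subtraction only, against 3.67-fold and 2.92-fold with normexp, and *Lum* and *Postn* were not well above background on any array. *Dcn* and *Col3a1* passed the filter through the control samples only. Each bound sets the control mean against a floor averaged over the *L3mbtl2*-KD arrays. The floor is the dimmest signal that still counted as well above background, or the probe's own signal if higher. Control replicate 1 had the lowest feeder sum of the control samples and the highest control value of every member but *Syce2*, whether the member fell, rose or was not called. This is 1 sample, and over the other control samples the members kept no common order with the feeder sum. The part of feeder RNA in the falls of *Syce1*, *Tex12*, *Hormad1* and *Fkbp6* was not tested.

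Of 8 two-cell-like genes, 7 were tested and 6 called higher (by the adjusted one-way test, 4), and their summed intensity was 15.1, 17.5, 11.4 and 11.5 in control ESCs and 49.4, 45.9, 26.8 and 26.5 in *L3mbtl2*-KD ESCs, with *Zscan4c* the brightest. *Usp17la* was called on its brighter probe only, and its other tested probe gave a log2 fold change of 0.28 (limma adjusted p = 0.33). In both groups the sum was higher on the first slide, as was *Hormad2*, while *Sycp1* and *Tex11*, which also rose, did not show this in *L3mbtl2*-KD ESCs. Of 6 primitive endoderm genes, all were tested and 4 called lower, with summed intensities of 1.69, 2.09, 1.54 and 1.95 in control ESCs and 0.999, 1.82, 1.36 and 1.11 in *L3mbtl2*-KD ESCs, with *Gata6* the brightest. Of these 4, *Foxa2* was well above background in 0, *Dab2* in 1 and *Sox17* in 3 of the 4 *L3mbtl2*-KD samples. *Foxa2*, *Dab2* and *Sox17* thus passed the filter through the control samples only. With normexp only *Sox17* (-1.10) kept a change above 2-fold (*Dab2* -0.95, *Pdgfra* -0.80, *Foxa2* -0.41). Of 6 trophectoderm genes 5 were tested, and of 10 pluripotency genes all 10, and 0 of either list were called in limma (at an unadjusted p under 0.05, 0 higher, with 1 trophectoderm and 4 pluripotency genes lower; by the adjusted one-way test, 0). All 5 trophectoderm genes were lower (median -0.38), as was their sum in each of the 4 pairs, at 8.39, 14.8, 12.61 and 9.49 in control and 7.25, 12.8, 11.9 and 8.64 in *L3mbtl2*-KD ESCs (brightest *Tfap2c*, *Elf5* not well above background on any array). Of the pluripotency genes 8 of 10 were lower (median -0.34), with *Nanog* at -1.32 (limma adjusted p = 0.096) and *Klf4* at -0.70 (limma adjusted p = 0.027), while their sum, led by *Dppa5a*, was 244 to 278 in control and 230 to 284 in *L3mbtl2*-KD ESCs. The part of these cells in the members' changes was not tested.

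**Figure D5:**
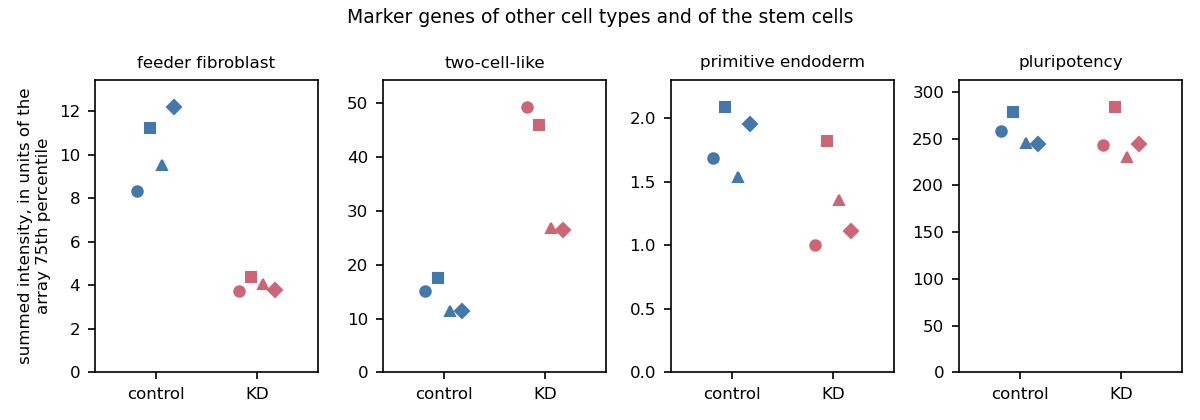
Summed intensity of the tested genes of 4 marker lists in 4 control (blue) and 4 *L3mbtl2*-KD (red) samples, in units of each array's 75th percentile, with a linear axis from 0 and symbols for replicates as in the plot of member values. Feeder fibroblast sums were 8.33 to 12.2 in control and 3.76 to 4.37 in *L3mbtl2*-KD samples, and pluripotency sums overlapped.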

How the data were processed

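RNA of 4 *L3mbtl2*-KD and 4 control VV3 ESC samples was hybridised to one-colour Agilent arrays. The authors deposited the intensity of each spot after background subtraction by Agilent Feature Extraction 10.7.3.1, not normalized between arrays. They also deposited a log2 table, which was found to equal log2 intensities after a shift by each array's 75th percentile and a centring on each probe's median (lowest correlation of an array 0.999; column medians -0.02, 0.02, 0.05 and -0.02 in control and -0.04, 0.02, -0.06 and 0.08 in *L3mbtl2*-KD). Its direction is that of the intensities.

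Here each log2 intensity was set relative to its array's 75th percentile, without control spots and spots with outlier flags (123 to 294 of 43020 per array), with replicate spots averaged. The 75th percentile was 791 to 1038 intensity units, and 59.5 to 66.6% of spots were well above background. Only 4 arrays per group limit the precision. Of 39429 probes, 26055 got a gene name from RefSeq (assembly GRCm38.p6, for names only). In all, 23518 probes were tested, 78 of which lacked a value on some array, in R 4.3.3 with limma 3.58.1 (lmFit, eBayes), after a run on simulated data. For a single probe per gene the brightest on average was taken. No spot was saturated and no 2 arrays of a group shared an identical value. The two-sided exact permutation test over samples gave p = 0.0286, the smallest that 4 against 4 allow, for each tested member probe with 8 values except *Sycp3* (p = 0.429). This smallest p only restates that the groups do not overlap. The share of all tested probes that reach it was not counted, and the test takes the samples as unpaired.

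The arrays lay on 2 slides with both groups on each, at different positions. Deviations from the group means correlated at 0.38 to 0.58 between samples with the same replicate number and at -0.44 to 0.25 otherwise, so the numbers pair the samples, as inferred from the values. Alternatives were normexp background correction (offset 50, on median spot intensities in place of mean ones), quantile normalization, the authors' table, other filters on dim probes, an intensity trend, a block for slide or for replicate number, a 1.5-fold threshold, the one-way test that the figure legends name, one probe per gene and leaving out each sample. The normexp shifts between 2 members were added after seeing the data.

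Named are all members, *L3mbtl2*, *Ddx4*, from each list of partners up to 6 called genes per direction and up to 4 (recombination, 2) with the smallest change, and the 2 genes closest to each called member. *Terb1*, *Syce1l*, *Stag2*, *Stag3*, *Spo11* and the single marker genes were named outside this rule, after their values were seen. The members and lists were chosen with earlier results of these data known. Of the recombination genes planned, 2 are not analysed here. Promoter sequences are from RefSeq.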

Additional observations from a re-analysis of the deposited data

Results flagged for a closer look

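In 27 groups of 4 samples, those of the member probes, *L3mbtl2* and *Ddx4* with 4 values, 2 held a sample that Dixon's ratio set apart, where chance gives about 1 in 20 groups, or 1.35. On the second probe of *Tex11*, *L3mbtl2*-KD replicate 2 read -3.75 where the other 3 averaged -2.94 (ratio 0.84). For *Fkbp6*, *L3mbtl2*-KD replicate 1 read -2.48 where the other 3 averaged -3.01 (ratio 0.837). Both samples were nearer to the control samples than the rest of their group was, and both probes kept their direction and an adjusted p under 0.05 in limma without them. The cause was not tested.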

How the results depend on the processing

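Every tested member probe, *L3mbtl2* and *Ddx4* kept their direction under all alternatives run for them (17 for the second *Tex11* probe, 18 for the others). *Sycp1*, *Sycp3*, *Syce1*, *Tex12*, *Fkbp6*, *Hormad1* (both probes), the brighter *Tex11* probe, *L3mbtl2* and *Ddx4* also kept their side of an adjusted p of 0.05 in limma. *Syce2* lost it without the filter on dim probes and in the adjusted one-way test (0.56 in both), and with samples left out, where it ranged from 0.46 to 0.66. *Hormad2* lost it in these 2 settings too (1.18 in both), and when any 1 of control replicates 3 and 4 and *L3mbtl2*-KD replicate 1 was dropped (1.02 to 1.39 over all samples left out). Without the filter on dim probes, *Sycp2* was called higher (2.01, limma adjusted p = 0.0053), though no control sample had it well above background. The second *Tex11* probe lost it in the authors' table (0.76, adjusted p = 0.38), which holds a value of 1.26 for the control spot left out here, in the adjusted one-way test (1.36) and without control replicate 3 (1.09; 1.09 to 1.57 over all samples left out). For the others the cause was not tested, beyond fewer samples and more probes adjusted for. With the replicate block, *Syce2* had an adjusted p of 0.0049, *Hormad2* 0.0024 and *Sycp1* 0.0018, 3 members were called higher and 4 lower, and no call of a member changed. Normexp called 2 members lower (*Syce1* and *Fkbp6*) and 2 higher (*Sycp1* and *Tex11*), and the cause was not tested. Over all genes it gave 194 higher and 159 lower, a 1.5-fold threshold gave 700 and 1014, and probes above background on all arrays gave 290 lower, with fewer genes tested. Among 60 other genes of the lists, compared after seeing the data, 1044 of 1074 values kept direction and side. Those that reversed were small and not called: *Stag1* (0.00220 with normexp), *Msh5* (0.045 with quantile normalization), and over samples left out *Six6os1*, 4930447C04Rik (-0.0932 to 0.0352), *Stag1* (-0.0370 to 0.0330), *Smc3* (-0.0840 to 0.0376), *Mnd1* (-0.0927 to 0.00738), *Msh4* (-0.13 to 0.366), *Sohlh1* (-0.21 to 0.467) and *Zfp42* (-0.0458 to 0.194). Low signal over background limits *Tex12*, *Sycp2*, *Mei4* and the second *Tex11* probe.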
